A study of Homo sapiens with 8 samples.

Results

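The interaction of OSMI-2 and AT7519 is the departure of the combined treatment from what the 2 agents did singly. For each gene it was computed from normalised counts on the log2 scale, as the combination minus AT7519 minus OSMI-2 plus control, with group means throughout. A value of 0 means that the folds of the agents multiplied, a negative value that the combination lay below that additive level, and a positive value that it lay above. The members are all genes whose normalised counts averaged 10 or more across the libraries, which were 19393 of the 55737 genes in the deposited table. At the edge of that rule, DOCK10 with a mean of 10.004 was tested and RP11-552F3.12 with a mean of 9.9907 was not.

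All libraries came from LNCaP, a human prostate cancer cell line, harvested 4 h after treatment. The groups were control, 40 µM OSMI-2, 0.5 µM AT7519, and 40 µM OSMI-2 together with 0.5 µM AT7519, with 2 libraries each. The series design gives these doses in µM, whereas the treatment field prints the same figures in mM. The labels do not state whether the replicates were grown separately, so the p-values rest on the spread among these libraries, possibly a technical one. Libraries hold whole cultures, so a change in fewer cells and a smaller change in each cell cannot be told apart.

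OSMI-2 is an inhibitor of O-GlcNAc transferase (OGT), the enzyme that places N-acetylglucosamine on serine and threonine residues of nuclear and cytosolic proteins, RNA polymerase II among them. AT7519 inhibits several cyclin-dependent kinases, including CDK9, which with a cyclin T forms P-TEFb and releases promoter-paused polymerase into elongation. Blocking P-TEFb lowers new transcription at most genes, and it shows first in short-lived RNAs such as those of immediate early genes, MYC and MCL1.

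Libraries held 60152710 to 154367238 reads assigned to genes, the fewest in the second library of the combination, and a level of 3 reads corresponded to between 1.76 and 5.47 normalised counts. That floor covers counting error only. Mitochondrially encoded mRNAs took 4.45% to 5.53% of the counts without AT7519 and 6.57% to 7.73% with it, so levels are relative to a chosen scale. On the deposited scale the median interaction of the tested genes was 0.01. All 11 luminal prostate markers were present in every library, with the prostate-specific antigen gene KLK3 between 93640 and 156700 normalised counts. KRT5, TP63, CHGA, COL1A2, CDH5, PTPRC and CD3E stayed below 4 normalised counts everywhere, whereas the fibroblast genes COL1A1 (1814 to 3726) and LUM (9.12 to 62.0) and the endothelial gene VWF (1132 to 1506) were detected in all libraries. The basal keratin KRT14 (40.0 to 103.9) and the neuroendocrine marker SYP (58.9 to 99.5) were detected in all of them too.

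The interaction was called in 201 of the 19393 genes, 1.04% of those tested, at an adjusted p below 0.05 (limma, Benjamini-Hochberg over all tested genes, two-sided). Of these, 189 genes (0.975%) lay below additive and 12 (0.0619%) above. The called genes below additive had a median log2 interaction of -0.90 and reached from -0.52 to -3.68, and 67 of them were at least 1 below on the log2 scale. The 12 above ran from 0.50 to 2.85 with a median of 0.86. Across all tested genes, the 10th percentile of the interaction was -0.51 and the 90th was 0.53, with a median standard error (SE) of 0.21. Without adjustment, 1962 genes had a p below 0.05, 1254 below and 708 above.

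Most genes below additive shared a shape. The OSMI-2 change was of the same sign and larger with AT7519 in 117 of the 189, of opposite sign in 71 and smaller in 1. OSMI-2 without AT7519 left them near the control level, with a median change of -0.04. Among them, 14 were called higher with it and 0 lower, beside 0.645% of all tested genes called higher and 2.38% lower. In the presence of AT7519, the same agent lowered 177 of them, with a median change of -0.94, against 12.5% of all tested genes lowered and 7.21% raised. AT7519 by itself had called 98 of the 189 lower and 20 higher, with a median change of -0.35, while 27.2% of all tested genes were called lower and 26% higher. These counts use the libraries of the interaction itself and are a description of it. Both combination libraries lay under all 6 others in 172 of the 189 genes, and in 2550 (13.15%) of all tested genes. In 187 of the 189, the combination also fell short of the sum of changes on the linear scale.

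**Figure D1:**
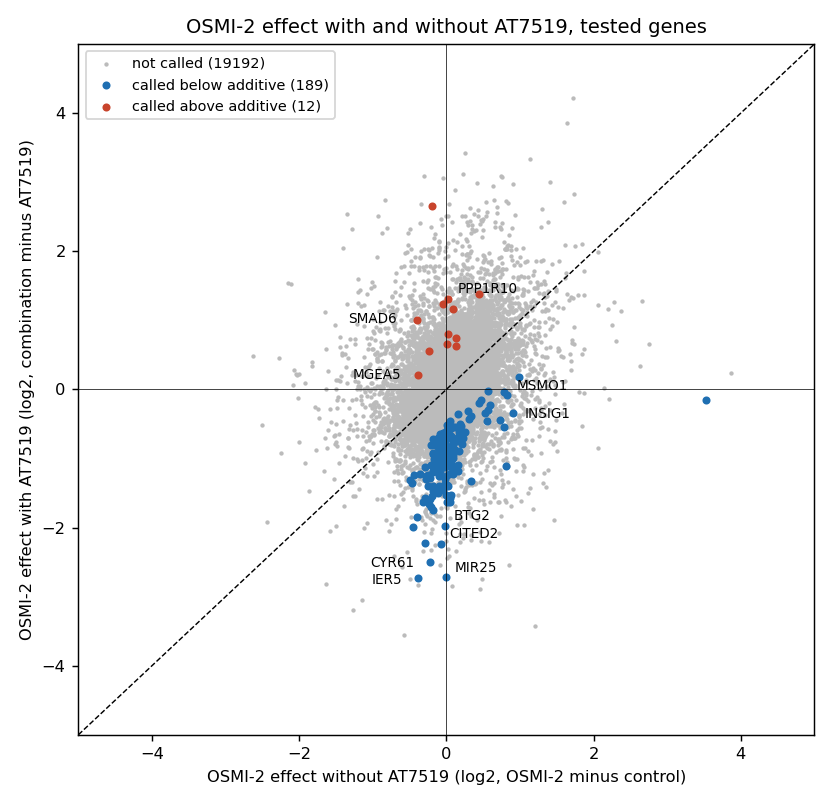
OSMI-2 effect without AT7519 (horizontal axis, OSMI-2 minus control, log2) against the effect with AT7519 (vertical axis, combination minus AT7519, log2) for the 19393 tested genes, each point a gene; the dashed diagonal marks no interaction. The 189 genes called below additive (blue) crowd beneath the diagonal near 0 on the horizontal axis, and the 12 called above (red) lie over it.

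Over all tested genes, the OSMI-2 effects without and with AT7519, which share no library, correlated with a Pearson r of 0.351 and a Spearman rho of 0.451. The AT7519 effects without and with OSMI-2 gave 0.846 and 0.837. Genes are not independent replicates, and these values are a description. The spread of the OSMI-2 effect over genes was wider with AT7519 (SD 0.54) than without it (SD 0.37).

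How many genes were called depended strongly on single libraries. Directions held when a library was left out, but the genes were chosen on these libraries, so this was largely set by that choice. Leaving out either control library left 4 or 2 calls, leaving out either OSMI-2 library left 4 or 7, and leaving out the first or second AT7519 library left 72 or 490. Without the first combination library 434 genes were called and without the second 55. All 201 genes kept their direction in each of these 8 fits, and 2 genes, EFNA5 among them, were called in all of them. Dropping the mean-variance trend from limma left 0 calls (1800 genes had an unadjusted p below 0.05), whereas edgeR on the recovered reads called 184 and DESeq2 563. Of the 201 genes, 171 were called by both count tools. In 152 of the 189 genes below additive (80.4%), the second combination library read lower than the first, against 49.4% of all tested genes, and in 148 (78.3%) the second AT7519 library read lower than the first, against 53.2%. The part of that replicate difference in the calls was not tested.

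The list with the lowest median was cholesterol synthesis with the targets of the transcription factor SREBP2, which senses sterols through the endoplasmic reticulum proteins SCAP and INSIG1. Of its 24 tested genes, 10 were called below additive (41.7%, beside 0.975% of all tested genes) and 0 above. A negative interaction was found in 23 of them, where 9199 of the 19393 tested genes had one. The median of the list was -0.57 beside 0.01 over all tested genes. Without AT7519, OSMI-2 had raised 8 of the 24 and lowered 1, with a median change of 0.28. Of all tested genes it raised 0.645% and lowered 2.38%. With AT7519 present, OSMI-2 raised 0 of the 24 and lowered 9, with a median of -0.29. The shares of all tested genes also grew, to 7.21% raised and 12.5% lowered. The list was written with earlier results of these data known, and its count is no independent evidence.

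INSIG1, which holds SCAP and SREBP in the endoplasmic reticulum when sterols are plentiful, read 19028 and 13180 normalised counts in control, 26376 and 33583 with OSMI-2, 14182 and 10558 with AT7519, and 8531 and 10909 with both. The combination overlapped the AT7519 libraries and lay below the others. The log2 interaction of INSIG1 was -1.25 (SE 0.24, adjusted p = 0.0274). OSMI-2 raised it by 0.91 without AT7519 and left it at -0.34 with AT7519 (adjusted p = 0.19).

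MSMO1, a methylsterol oxidase of the late pathway, read 11806 and 11069 in control, 18171 and 22623 with OSMI-2, 13109 and 12934 with AT7519, and 11093 and 13524 with both. Its combination libraries bracketed those of AT7519, near control and well under the additive level of 23094. Its log2 interaction was -0.91 (SE 0.15, adjusted p = 0.0153), and that of MVD, the mevalonate diphosphate decarboxylase, was -0.82 (SE 0.15, adjusted p = 0.0195). MVD read 3476 and 3098 in control, 6007 and 7073 with OSMI-2, 3591 and 3748 with AT7519, and 3885 and 4401 with both. In MVD the OSMI-2 libraries stood above the other 6, and the combination libraries stood above those of control and AT7519.

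Other called members acted at several steps of the route. Mevalonate kinase MVK had an interaction of -0.86, the isomerase IDI1 -0.74, squalene synthase FDFT1 -0.69, lanosterol synthase LSS -0.82 and the final reductase DHCR7 -0.71. Members that missed the threshold included SQLE (-0.69, adjusted p = 0.0646), STARD4 (-0.60, adjusted p = 0.0601) and HMGCS1 (-0.52, adjusted p = 0.0601). SREBF2, which encodes SREBP2 itself, had an interaction of -0.14 (adjusted p = 0.862), and only PMVK had a value above 0, at 0.01.

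The 10 calls became 1 without either control library, 2 and 1 without the first and second OSMI-2 library, 4 and 11 without the first and second AT7519 library, and 6 and 7 without the first and second combination library. With equal upper quartiles 5 were called, and the median of the list lay between -0.48 and -0.64 over all alternatives.

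**Figure D2:**
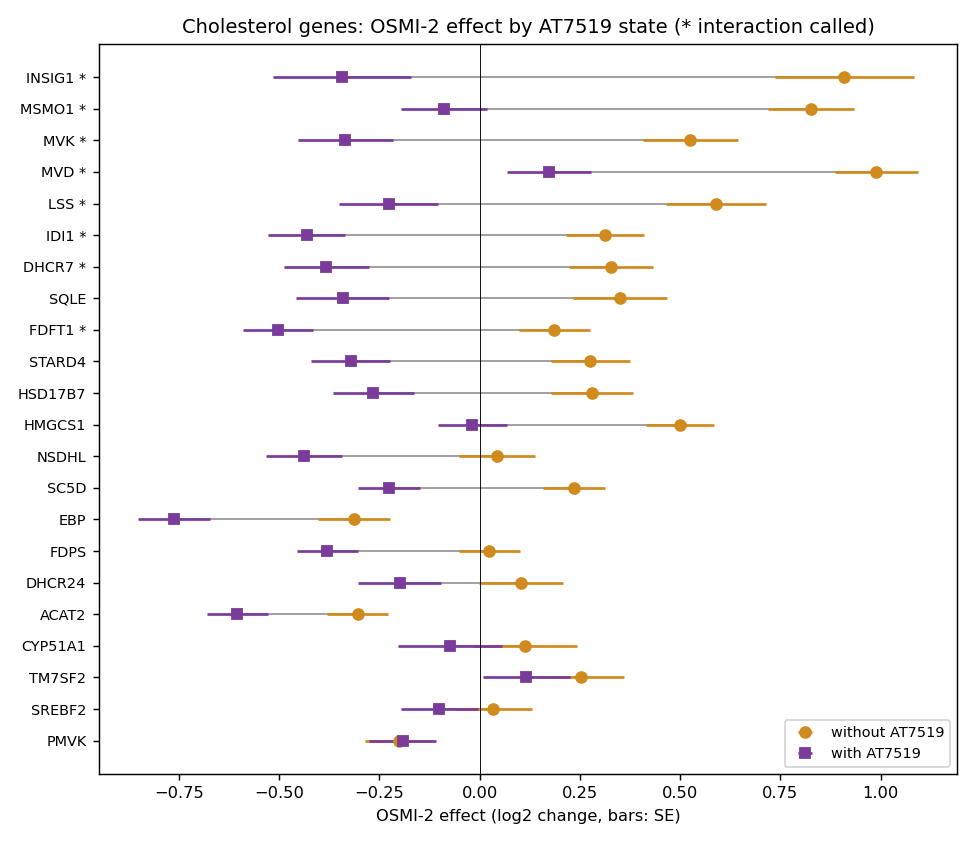
OSMI-2 effect (log2 change, horizontal axis) on 22 of the 24 tested cholesterol genes without AT7519 (circles, OSMI-2 minus control) and with AT7519 (squares, combination minus AT7519); bars are SE and an asterisk marks a called interaction. The squares lie left of the circles in 21 genes, and INSIG1 shows the widest gap of those plotted.

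Because these genes moved together, the stretch of 250 bases before the RefSeq start of 3 called members is shown on GRCh38.p14, 5′ to 3′ on the strand of the gene. Capitals mark CCAAT on either strand, read as CCAAT or ATTGG, the letters bound by the factor NF-Y, which works beside SREBP2 at such promoters. MSMO1 lies at chr4:165327419-165327668 on the plus strand and holds 4 matches, MVD at chr16:88663092-88663341 on the minus strand holds 3, and INSIG1 at chr7:155297628-155297877 on the plus strand holds 1.
MSMO1: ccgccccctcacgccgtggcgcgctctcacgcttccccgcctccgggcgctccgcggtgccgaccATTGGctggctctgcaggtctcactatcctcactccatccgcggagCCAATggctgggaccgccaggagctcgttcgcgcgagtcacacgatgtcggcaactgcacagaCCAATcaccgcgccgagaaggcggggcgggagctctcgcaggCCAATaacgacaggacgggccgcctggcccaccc
MVD: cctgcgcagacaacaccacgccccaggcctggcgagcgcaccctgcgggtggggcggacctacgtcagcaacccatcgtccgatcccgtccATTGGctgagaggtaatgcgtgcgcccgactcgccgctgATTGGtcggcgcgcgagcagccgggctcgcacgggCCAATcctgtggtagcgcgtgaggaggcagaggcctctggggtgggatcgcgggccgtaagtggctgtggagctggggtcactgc
INSIG1: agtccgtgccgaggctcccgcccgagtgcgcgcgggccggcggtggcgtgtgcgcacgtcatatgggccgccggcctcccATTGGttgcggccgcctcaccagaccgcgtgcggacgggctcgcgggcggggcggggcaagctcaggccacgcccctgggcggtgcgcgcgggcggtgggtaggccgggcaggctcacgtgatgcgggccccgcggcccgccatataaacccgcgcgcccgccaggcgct

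Of the first promoters of all 27305 genes in that table, 33.0% hold CCAAT in the same window. Promoters were matched for 18 of the 24 cholesterol genes, fewer than 80%, so a comparison over the list is void. Among those 18, CCAAT was found in 15, the GC box GGGCGG in 17 and the sterol response element letters TCACNCCAC in 1, each read on both strands. Of the 7 matched genes that were called, 6 held CCAAT, 7 the GC box and 0 the sterol response element. In the table of all genes, which includes genes that were not tested, 42.3% of promoters hold the GC box and 0.875% the sterol response element. Among the 10475 tested genes with a matched promoter, the GC box is more common, at 65.5%. CCAAT is held by 35.2% of those and the sterol response element by 0.869%. A match describes the letters of the window and not a site in use.

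Immediate early genes, which are induced without new protein synthesis and have short-lived mRNAs, formed the next group. Of 29 tested members, 7 were called below additive (24.1%) and 0 above, with a median of -0.45, where 0.975% of all tested genes were called below with a median of 0.01. The called genes were IER5, CYR61, BTG2, KLF4, DUSP2, DUSP4 and MYC. FOS and EGR1, the best known of the class, were barely detected, at 0 to 22.0 and 3.08 to 30.6 normalised counts over the 8 libraries, and gave no call.

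CYR61 encodes a secreted matrix protein that is a classical target of the coactivator YAP. It read 838 and 769 normalised counts in control, 712 and 660 with OSMI-2, 516 and 439 with AT7519, and 107 and 65.7 with both. All groups separated in that order, and the combination fell far under the rest. The combination mean was 86.1, beside an additive level of 407. The log2 interaction was -2.27 (SE 0.29, adjusted p = 0.00731), which is 4.81-fold on the log2(value + 1) scale.

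BTG2 is an antiproliferative p53 target that binds the CCR4-NOT deadenylase. It read 7580 and 6648 in control, 8076 and 6030 with OSMI-2, 4527 and 4554 with AT7519, and 1626 and 821 with both. Control and OSMI-2 overlapped, AT7519 lay below them and the combination below AT7519. Its log2 interaction was -1.95 (SE 0.31, adjusted p = 0.0139), and that of its relative BTG1 was -1.68 (SE 0.30, adjusted p = 0.0189).

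CITED2, a coregulator that binds CBP and p300, read 3494 and 3581 in control, 3612 and 3110 with OSMI-2, 1054 and 713 with AT7519, and 243 and 139 with both. OSMI-2 alone overlapped control, AT7519 lay well below, and both combination libraries lay under those of AT7519. Its log2 interaction was -2.16 (SE 0.31, adjusted p = 0.0121). IER5 read 737 and 769 in control, 632 and 530 with OSMI-2, 176 and 186 with AT7519, and 47.2 and 14.6 with both. Its log2 interaction was -2.35 (SE 0.51, adjusted p = 0.043), and it became -1.54 without the second combination library. On the linear scale the direction was opposite, with the combination 22.0 normalised counts above the sum of changes. The lowest IER5 value rested on 8 reads. KLF4, a zinc finger factor, had an interaction of -1.53, and the MAP kinase phosphatases DUSP2 and DUSP4 had -1.44 and -1.36.

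MYC read 13649 and 15319 in control, 13380 and 13845 with OSMI-2, 15662 and 15943 with AT7519, and 9927 and 10353 with both. The 6 libraries of the first 3 groups spanned a narrow band, and both combination libraries lay under it. AT7519 alone changed MYC by 0.13 on the log2 scale (adjusted p = 0.19) and OSMI-2 alone by -0.09 (adjusted p = 0.64), with a log2 interaction of -0.55 (SE 0.11, adjusted p = 0.030). MXD1, which competes with MYC for the partner MAX, had an interaction of -1.04 (SE 0.18, adjusted p = 0.0184). Both an activator and an antagonist of the network were thus called, 2 of its 12 tested genes (16.7%, beside 0.975% of all tested genes). SNRNP27 overlaps MXD1 on the same strand.

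The 7 immediate early calls became 0 without either control library, 0 and 1 without the first and second OSMI-2 library, 4 and 9 without the first and second AT7519 library, and 8 and 4 without the first and second combination library. They became 4 with equal upper quartiles and 4 with quantile normalisation.

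**Figure D3:**
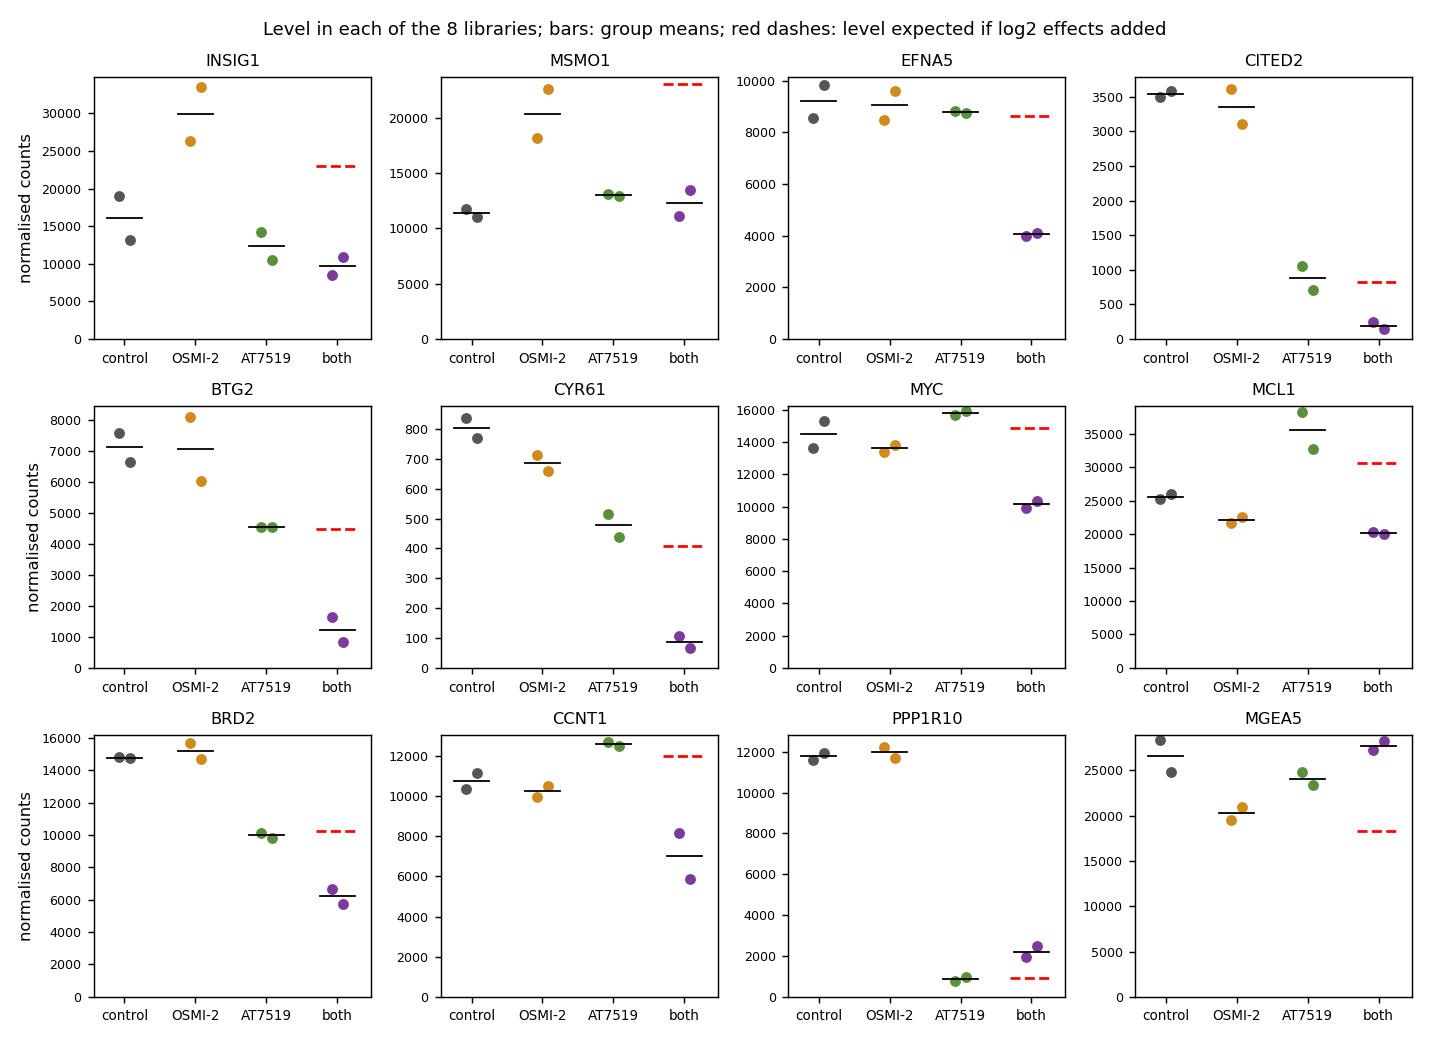
Normalised counts of 12 members in each of the 8 libraries (points, linear axes starting at 0) by group, with black bars for group means and red dashes for the level that additive log2 effects would give. In 10 panels the combination sits under the dashes and in PPP1R10 and MGEA5 above them; in MYC and EFNA5 only the combination libraries lie below the other groups.

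Each list of pause regulators held 1 call. In the list of P-TEFb and its 7SK inhibitor complex, 1 of 8 tested genes was called below additive (12.5%), and in the list of other pause release and elongation factors 1 of 33 (3.03%), beside 0.975% of all tested genes. The called gene of P-TEFb was CCNT1, which encodes cyclin T1. It read 10351 and 11128 in control, 9976 and 10492 with OSMI-2, 12702 and 12517 with AT7519, and 8183 and 5845 with both. Its combination libraries lay under the other 6, and its log2 interaction was -0.80 (SE 0.17, adjusted p = 0.0379). CDK9, the kinase itself, read 4872 and 4966 in control, 4965 and 4904 with OSMI-2, 8127 and 8640 with AT7519, and 6621 and 5663 with both. On the deposited scale AT7519 raised CDK9 by 0.77 alone and by 0.31 in the presence of OSMI-2. The interaction of -0.46 missed the threshold (adjusted p = 0.126). HEXIM1, the inhibitor that holds P-TEFb inactive, had an interaction of -0.03 (SE 0.15, adjusted p = 0.985), with AT7519 changes of -1.64 without and -1.67 with OSMI-2. The sign of that near-zero value turned with equal upper quartiles (0.0096) and equal mitochondrial mRNAs (0.03), and without the first control, second OSMI-2 or first combination library (0.02, 0.05 and 0.12).

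BRD2, a bromodomain protein of the BET family that binds acetylated chromatin, was the called member of the second list. It read 14802 and 14749 in control, 15698 and 14684 with OSMI-2, 10154 and 9839 with AT7519, and 6691 and 5719 with both. OSMI-2 overlapped control, AT7519 was lower and the combination lower still. BRD2 had a log2 interaction of -0.73 (SE 0.12, adjusted p = 0.0153). HLA-DMA overlaps BRD2 on the other strand.

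Among genes that govern apoptosis, 2 of 22 were called, both below additive (9.09%, beside 0.975% of all tested genes), with a median of -0.01. MCL1 encodes a short-lived antiapoptotic protein and read 25198 and 25973 in control, 21629 and 22603 with OSMI-2, 38254 and 32764 with AT7519, and 20373 and 20099 with both. On the deposited scale AT7519 raised it by 0.47 log2 units (adjusted p = 2.0e-04), and the combination libraries were the lowest of the 8. Its log2 interaction was -0.60 (SE 0.11, adjusted p = 0.0241). Mitochondrial mRNAs had a median AT7519 change of 0.91 on the deposited scale. Changes with single agents were not fitted on other scales. BBC3, which encodes the proapoptotic protein PUMA, read 565 and 466 in control, 919 and 786 with OSMI-2, 742 and 716 with AT7519, and 578 and 500 with both. Each agent raised BBC3 singly on the deposited scale, and the combination libraries overlapped those of control. Its interaction was -1.17 (SE 0.21, adjusted p = 0.0204). An antiapoptotic and a proapoptotic gene were thus called in the same direction.

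Of 30 tested p53 targets, 6 were called below additive (20%, beside 0.975% of all tested genes) and 0 above, with a median of -0.34. Besides BTG2 and BBC3 these were PLK2, a kinase, TP53INP1, the secreted factor GDF15, and PPM1D, a phosphatase that switches p53 off. PPM1D read 2552 and 2579 in control, 2439 and 2184 with OSMI-2, 1930 and 1658 with AT7519, and 653 and 620 with both. The combination libraries lay far under all others, with an interaction of -1.34 (SE 0.16, adjusted p = 0.00524). GDF15 took another course. It read 28929 and 21309 in control, 39900 and 33930 with OSMI-2, 52753 and 48031 with AT7519, and 43856 and 37984 with both, so the combination stayed above control but under AT7519. The additive level would have been 74595, and its interaction was -0.87 (SE 0.17, adjusted p = 0.0303). PLK2 had an interaction of -1.54 and TP53INP1 of -0.88. CDKN1A, the p53-induced CDK inhibitor p21, missed the threshold at -0.49 (SE 0.12, adjusted p = 0.0755). The 6 calls became 1 and 0 without the first and second control library, 0 and 1 without the OSMI-2 libraries, 3 and 8 without the AT7519 libraries, and 9 and 2 without the combination libraries.

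Among 15 G1 cyclins, CDK inhibitors and RB family genes, 1 was called below additive (6.67%, beside 0.975% of all tested genes). This was CDKN1B, the CDK inhibitor p27, which read 7954 and 8103 in control, 9420 and 9173 with OSMI-2, 6674 and 5234 with AT7519, and 3828 and 3027 with both. The combination was the lowest group without overlap, with an interaction of -1.01 (SE 0.17, adjusted p = 0.0153). CCND1, cyclin D1, read 21871 and 24885 in control, 19598 and 19691 with OSMI-2, 11942 and 11187 with AT7519, and 12457 and 15332 with both. Its interaction of 0.51 (SE 0.14) did not pass (adjusted p = 0.112), and LTO1 overlaps it on the other strand.

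Rows that cover microRNA loci, MIR25 and MIR17HG, were among the 10 largest named interactions below additive. MicroRNAs are short RNAs that pair with target mRNAs through their seed, bases 2 to 8. MIR17HG is the host transcript of the miR-17-92 cluster, and MIR25 lies with MIR93 and MIR106B in an intron of the replication gene MCM7. These rows count reads over the loci and not mature microRNAs, which were not measured. Neither MIR93 nor MIR106B was among the called genes. Of the tested rows annotated as microRNAs, 2 were called, MIR25 and MIR593, and 90 were not. The mature sequences are shown because the loci share seeds. They are from RefSeq on GRCh38.p14, 5′ to 3′, with the seed in capitals. The MIR25 product lies at chr7:100093571-100093592 on the minus strand, and those of the host transcript lie between chr13:91350618-91350640 and chr13:91351361-91351382 on the plus strand.
miR-25-3p: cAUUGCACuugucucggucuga
miR-92a-3p: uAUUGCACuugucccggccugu
miR-17-5p: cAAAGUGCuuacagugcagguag
miR-20a-5p: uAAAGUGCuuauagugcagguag
miR-19a-3p: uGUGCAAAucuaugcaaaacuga
miR-19b-3p: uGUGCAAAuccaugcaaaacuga

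The first pair shares the seed AUUGCAC across the loci, miR-17-5p and miR-20a-5p share AAAGUGC, and the miR-19 pair shares GUGCAAA. The MIR25 row read 220 and 191 normalised counts in control, 199 and 209 with OSMI-2, 105 and 183 with AT7519, and 22.6 and 18.2 with both. AT7519 lay under control and OSMI-2, and the combination lay far under AT7519. The row had a log2 interaction of -2.71 (SE 0.41, adjusted p = 0.0125), and its lowest value rested on 10 reads. MCM7, on the same strand, read 25062 and 25080 in control, 18584 and 14854 with OSMI-2, 28952 and 27835 with AT7519, and 20834 and 18986 with both. Its interaction was 0.08 (SE 0.13, adjusted p = 0.937), so the row within its intron and the host mRNA differed in their values. MIR17HG read 345 and 386 in control, 260 and 343 with OSMI-2, 128 and 206 with AT7519, and 42.0 and 27.4 with both. Its combination libraries were lowest, with an interaction of -1.94 (SE 0.40, adjusted p = 0.033).

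EFNA5, a membrane-bound ephrin ligand named here after its value was seen, read 8558 and 9851 in control, 8495 and 9603 with OSMI-2, 8834 and 8760 with AT7519, and 3997 and 4111 with both. The first 6 libraries overlapped and only the combination lay apart, with an interaction of -1.09 (SE 0.13, adjusted p = 0.00524). Among luminal prostate markers and lineage factors, 2 of 21 were called below additive (9.52%, beside 0.975% of all tested genes), GATA2 and SLC45A3. GATA2, a transcription factor of luminal prostate cells, read 14072 and 14759 in control, 14160 and 14242 with OSMI-2, 14466 and 13176 with AT7519, and 9268 and 7260 with both. It showed the same course, with an interaction of -0.73 (SE 0.14, adjusted p = 0.0277).

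Of 29 androgen-regulated genes, 2 were called, both below additive (6.90%, beside 0.975% of all tested genes), with a median of -0.03. SLC45A3, the luminal membrane protein prostein, had an interaction of -0.62 (SE 0.13, adjusted p = 0.0343) and the transcription factor gene ZBTB10 had -0.66 (SE 0.15, adjusted p = 0.0485). OSMI-2 raised SLC45A3 by 0.46 without AT7519 and changed it by -0.16 with AT7519 (adjusted p = 0.25). KLK3 had an interaction of 0.14 (adjusted p = 0.892). The sign of KLK3 turned without the first OSMI-2 library (-0.01) and without the second combination library (-0.06).

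Among receptors and feedback genes of the Wnt, BMP and TGF-beta pathways, 2 of 23 were called below additive and 1 above (13.0% in all, beside 1.04% of all tested genes), with a median of -0.41. The Wnt receptor FZD5 had an interaction of -0.89 (SE 0.19, adjusted p = 0.037), and the TGF-beta corepressor TGIF1 had -1.06 (SE 0.19, adjusted p = 0.0182). VASN, a membrane protein outside the list that binds TGF-beta, had -1.66 (SE 0.24, adjusted p = 0.0121), with CORO7 on the other strand. With equal mitochondrial mRNAs, 7 members of the list were called below. The calls below became 0 without any 1 of the control libraries, the OSMI-2 libraries or the first AT7519 library. They became 6 without the second AT7519 library, and 7 and 1 without the first and second combination library.

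Further calls came from small lists, and 1 or 2 calls do not describe a list. By comparison, 0.975% of all tested genes were called below additive. The phosphatidylinositol 3-kinase adaptors PIK3R1 and PIK3R3 had interactions of -0.63 and -0.73, 2 of 18 genes of insulin signalling. NFE2L2, the antioxidant regulator NRF2, had -0.75, the only call among 20 genes of its list. The zinc exporter SLC30A1 had -1.28, 1 of 9 zinc genes, and the acetyl-CoA synthetase ACSS2 had -0.65, 1 of 16 genes of fatty acid synthesis. DNAJC3, a cochaperone of the endoplasmic reticulum, had -0.61 (adjusted p = 0.0469). It was the only call among 23 endoplasmic reticulum chaperone and unfolded protein response genes, though all 23 had a negative value, with a median of -0.21. Coding genes on the other strand overlap NFE2L2 and ACSS2. LIF, a cytokine, had -1.63 (SE 0.32, adjusted p = 0.0264).

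Zinc finger genes with ZNF symbols, many of them DNA-binding factors, had 13 calls below and 2 above among 466 tested. That is 3.22% in all, beside 1.04% of all tested genes, with a median of -0.10. ZNF281 read 3601 and 3860 in control, 3908 and 3817 with OSMI-2, 3263 and 2399 with AT7519, and 1293 and 680 with both, an interaction of -1.63 (SE 0.30, adjusted p = 0.0216). ZNF420 had -1.30 (SE 0.20, adjusted p = 0.0127). In both genes the combination libraries were the lowest. ZNF382 and ZNF75A were the members called above additive, at 1.08 (adjusted p = 0.0414) and 0.65 (adjusted p = 0.030). ZNF420, ZNF382 and ZNF75A overlap a coding gene on the other strand.

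The 12 genes above additive had another shape. AT7519 had called 10 of them lower without OSMI-2, and OSMI-2 had called 11 higher in the presence of AT7519 against 0 without it. Of all tested genes, AT7519 alone called 27.2% lower. OSMI-2 called 7.21% of them higher with AT7519 and 0.645% without it. The AT7519 change was smaller with OSMI-2 in 8 genes and of opposite sign in the other 4. Both combination libraries lay above all others in 3 of the 12, and the share of all tested genes doing so was not counted. As for the genes below additive, these counts use the libraries of the interaction itself and are a description of it. PPP1R10 encodes PNUTS, which brings protein phosphatase 1 to chromatin and to RNA polymerase II. It read 11608 and 11938 in control, 12248 and 11687 with OSMI-2, 794 and 981 with AT7519, and 1950 and 2467 with both. The groups with AT7519 were far below the others, and the combination libraries lay above those of AT7519 alone. AT7519 changed PPP1R10 by -3.74 on the log2 scale without OSMI-2 and by -2.45 with it, an interaction of 1.29 (SE 0.17, adjusted p = 0.00796). MRPS18B overlaps it on the other strand.

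MGEA5 is the older symbol of OGA, the gene of the enzyme that removes O-GlcNAc. It read 28414 and 24816 in control, 19571 and 20927 with OSMI-2, 24781 and 23336 with AT7519, and 27258 and 28200 with both. OSMI-2 lowered it by itself, and the combination libraries returned to the upper end of the control range. Its interaction was 0.60 (SE 0.11, adjusted p = 0.0243). This was the only call among 12 genes of O-GlcNAc cycling and hexosamine synthesis (8.33%, beside 1.04% of all tested genes). OGT itself read 24330 and 23509 in control, 31597 and 30152 with OSMI-2, 23384 and 29175 with AT7519, and 38849 and 37923 with both. OSMI-2 raised OGT by 0.37 without AT7519 and by 0.56 with it, and the interaction of 0.19 (SE 0.13) did not pass (adjusted p = 0.742). The enzyme that removes the sugar was therefore called and the one that adds it was not, a difference between the genes that was not itself tested.

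SMAD6, an inhibitory SMAD that dampens BMP signalling, read 463 and 546 in control, 395 and 366 with OSMI-2, 88.8 and 131 with AT7519, and 216 and 221 with both. The combination libraries lay between those of AT7519 and those of OSMI-2, with an interaction of 1.41 (SE 0.29, adjusted p = 0.036). XRCC2, a gene of homologous recombination, had 0.79 (SE 0.14, adjusted p = 0.0195). It was the only call among 37 DNA repair genes (2.7%, beside 1.04% of all tested genes). The other named genes above additive were ERVK13-1 (0.77), FBXL19-AS1 (0.61), an antisense transcript of FBXL19, and N4BP2L2 (0.50). AJUBA, a LIM domain adaptor that was next in order, did not pass at 0.71 (adjusted p = 0.0511). With equal mitochondrial mRNAs the split changed to 53 genes above and 230 below, from 12 and 189.

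Many lists had 0 calls in either direction, where 1.04% of all tested genes were called. They covered ATF4 and the integrated stress response (32 tested genes), heat shock (29), DNA replication (40), mitosis (36), histones (42), ribosome biogenesis (34), ribosomal proteins (85), nuclear respiratory chain genes (77), splicing factors (41), NF-kB (15), glycolysis and hypoxia (26), and proteasome subunits (37). Their medians lay between -0.04 and 0.07 on the log2 scale except for histones (-0.14) and NF-kB (-0.22). These medians moved with single libraries. The histone median ran from -0.27 without the second combination library to 0.02 without the first control library, and that of NF-kB from -0.47 to -0.14 without the first and second combination library. Leaving out the first or second OSMI-2 library gave 0.21 or -0.09 for ATF4 genes and 0.21 or -0.09 for DNA replication. Of these 12 lists, only ribosomal proteins and NF-kB kept the sign of their median in all 8 fits with 1 library left out. In several of these lists OSMI-2 had a like effect in both states. Ribosome biogenesis had a median OSMI-2 change of -0.38 both without and with AT7519, and heat shock of -0.40 and -0.41. Box C/D small nucleolar RNAs had a median interaction of 0.27, the highest of the lists, with 0 of 85 called. That value rested on the AT7519 libraries, at -0.06 without the first and 0.47 without the second. A missed threshold does not show that a gene was additive, since the simulated test called 15% of genes with a true interaction of -0.5, 80% at -1 and 100% at -2. Those interactions were placed only in genes well above the minimum level of the rule, so the shares do not cover genes of low level.

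**Figure D4:**
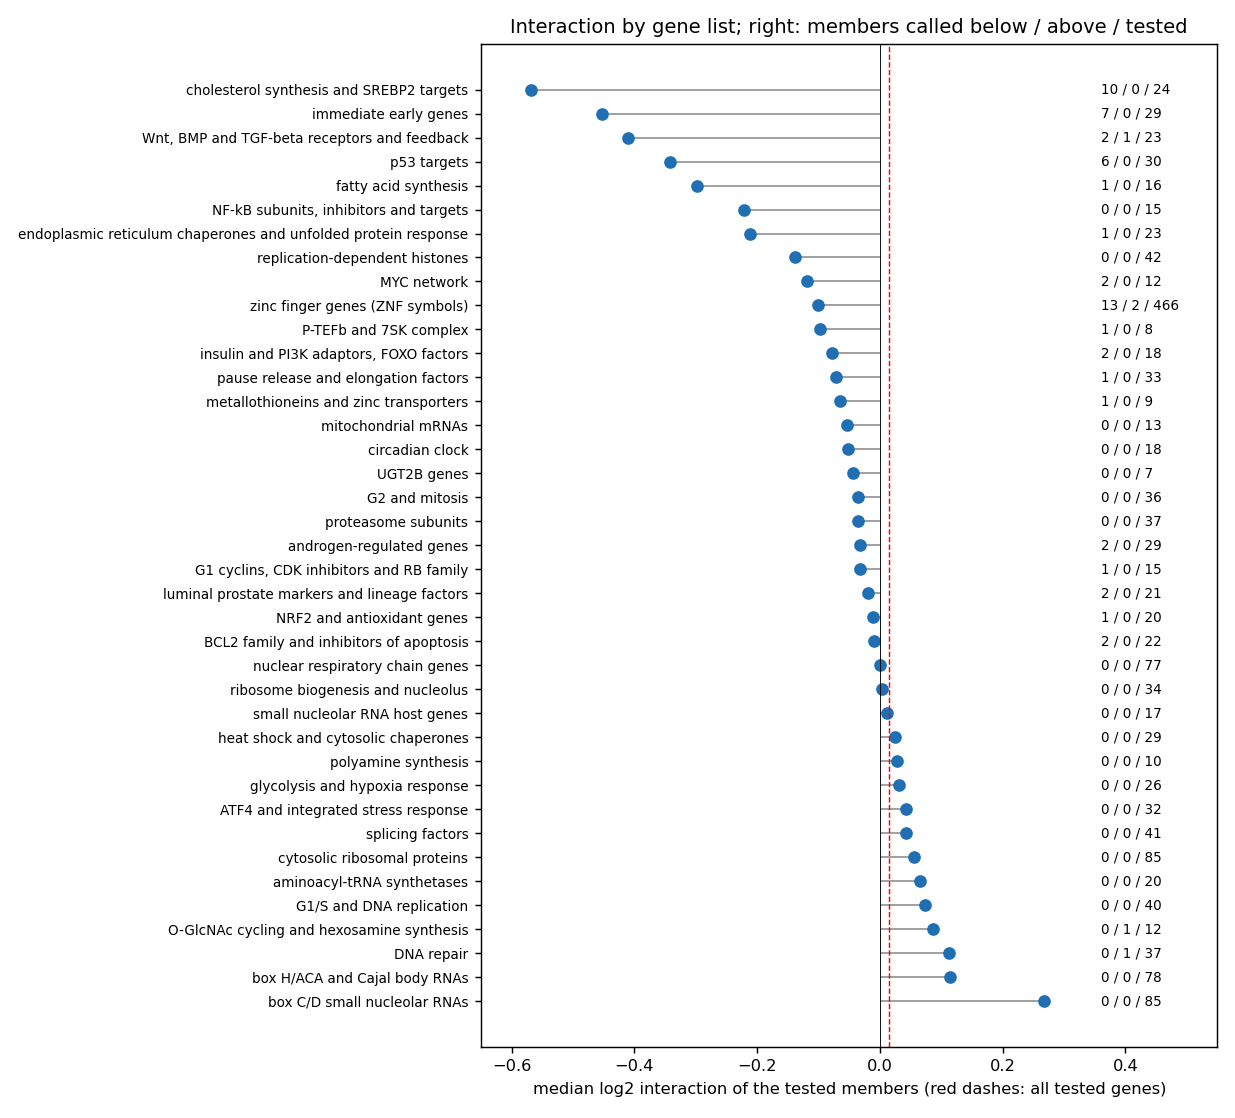
Median log2 interaction of the tested members of each gene list (points, horizontal axis), with the median of all tested genes as red dashes and the members called below, above and tested printed at the right. Cholesterol, immediate early, Wnt and p53 lists lie furthest to the left, at -0.57, -0.45, -0.41 and -0.34.

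Genes below additive had fewer exons at the median than tested coding genes of like abundance, a set that includes most of them. Of the 189, 182 were matched to a protein-coding gene of GENCODE release 29, and they had a median of 4 exons (quartiles 3 and 8). The 8488 coding genes tested between the 5th and 95th percentile of their levels had a median of 10 exons (quartiles 5 and 16). Genes with 1 or 2 exons made up 24.7% (45 genes) of the first set and 5.3% (450 genes) of the second. The median genomic span was 24.2 kb against 35.5 kb, and the longest transcript was 4496 against 3574 bases. Exon number was not used in choosing the genes, and these are descriptions of gene sets with no test. Genes lowered by AT7519 in general were not compared.

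**Figure D5:**
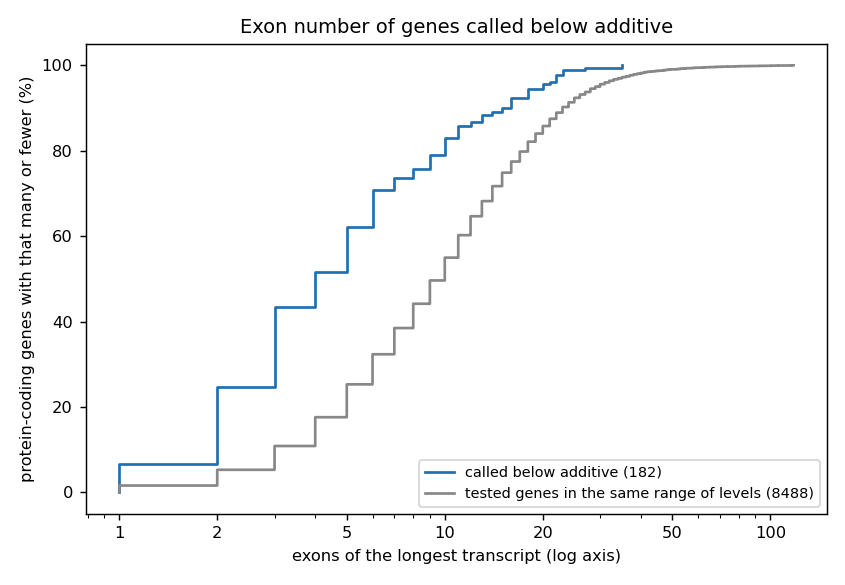
Share of protein-coding genes (vertical axis, %) with a given number of exons or fewer in their longest transcript (horizontal axis, log scale), for the 182 genes called below additive (blue) and the 8488 tested genes in the same range of levels (grey). The blue curve runs above the grey one, with medians of 4 and 10 exons.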

How the data were processed

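The deposited table holds normalised counts, a coverage signal made by the authors from the reads of each gene with a scale factor for every library. The submitters' processing notes name STAR, HTSeq, DESeq2, hg19 and GRCh37. Versions, annotation and strand setting: not given in the sources used here. Dividing each column by its smallest step gave whole reads for 100% of values within 0.01, so counts could be recovered. The 28 lines without a gene name were dropped.

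Values were taken to log2 after adding 1, and limma (3.58.1, R 4.3.3), with its trend of variance on mean, was run on 4 group means over 19393 genes, with 4 residual and 10.1 prior degrees of freedom. Contrasts were two-sided, adjusted by Benjamini-Hochberg over all tested genes and called below 0.05. "Rose" or "lowered" is used of called effects. Folds are on the log2(value + 1) scale and understate changes of low genes. In simulated data, 0.0208% of genes with no interaction were called. Each gene was simulated independently, without deviations shared by many genes of a library, so that share may not hold for these libraries. Alternatives included edgeR 4.0.16 and DESeq2 1.42.0 on the recovered reads.

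Named genes were the 10 largest called interactions in each direction (mean of at least 50, every group mean at least 10, no clone name; filled by p where fewer were called), up to 2 called members in each direction of each list, and 11 genes always given. Some genes these rules give are not reported here. Genes with a fuller account were picked among these and the called list members. Members, lists and this rule were chosen with earlier results of these data known. Lists are described by counts and medians, with no set test. Replicate libraries differed beyond counting error (chi-square of 20.5 to 32.3 for each degree of freedom). The genome of the build was not used here, so genes carry no positions; microRNA and promoter sequences are from RefSeq on GRCh38.p14, exon numbers from GENCODE release 29 by symbol.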

Additional observations from a re-analysis of the deposited data

Results flagged for a closer look

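Each of the 40 reported named genes with a called interaction is listed here, because the OSMI-2 effect differed between cells with and without AT7519 by the limma test of that difference. The values are the log2 effect with AT7519 minus that without it.

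The largest differences below 0 were those of MIR25 (-2.71), IER5 (-2.35), CYR61 (-2.27), CITED2 (-2.16), BTG2 (-1.95), MIR17HG (-1.94), BTG1 (-1.68), VASN (-1.66), LIF (-1.63), ZNF281 (-1.63) and PLK2 (-1.54). Those of ZNF420 (-1.30), SLC30A1 (-1.28), INSIG1 (-1.25), BBC3 (-1.17), TGIF1 (-1.06), MXD1 (-1.04) and CDKN1B (-1.01) came next. The remaining named genes below 0 were FZD5 (-0.89), CCNT1 (-0.80), NFE2L2 (-0.75), BRD2 (-0.73), GATA2 (-0.73), PIK3R3 (-0.73), ZBTB10 (-0.66), ACSS2 (-0.65), PIK3R1 (-0.63), SLC45A3 (-0.62), DNAJC3 (-0.61), MCL1 (-0.60) and MYC (-0.55). Above 0 were SMAD6 (1.41), PPP1R10 (1.29), ZNF382 (1.08), XRCC2 (0.79), ERVK13-1 (0.77), ZNF75A (0.65), FBXL19-AS1 (0.61), MGEA5 (0.60) and N4BP2L2 (0.50).

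All of these kept their sign when any 1 library was left out, and each lost its call without at least 1 library. The genes were chosen on the same libraries, so the kept signs were largely set by that choice.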

How the results depend on the processing

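Every alternative reuses libraries on which the 201 genes were called, so an unchanged direction was largely set by that choice. The 201 calls (12 above additive, 189 below) kept their direction under every alternative tried (199 had a value under the stricter filter), though how many passed changed. They became 118 with equal upper quartiles (11 above, 107 below), 131 after quantile normalisation (6 above, 125 below), 283 with equal mitochondrial mRNAs (53 above, 230 below) and 563 with DESeq2 (62 above, 501 below; its adjusted p was missing for 6392 genes). A fit without the mean-variance trend called 0 genes, 0 above and 0 below, with 1800 at an unadjusted p below 0.05. Both pseudocounts, both filters, equal totals and edgeR gave 184 to 228 calls. With 1 library left out, calls ran from 2 to 490, 0 to 116 of them above and 2 to 407 below, and a group reduced to 1 library is assumed to vary like the others. With the replicate block, 404 genes were called (38 above, 366 below), all 201 among them; equal numbers in the labels share no stated culture, and same-numbered libraries deviated together only weakly (r of 0.0207 to 0.123 between groups). The sign of HEXIM1 turned with equal upper quartiles (0.0096) and equal mitochondrial mRNAs (0.033), and with 1 library left out it ran from -0.18 to 0.12. KLK3 ran from -0.062 to 0.34 in those fits. The cause of these shifts was not tested. With 2 libraries a group, simulated interactions of 0.5 were called in 12.5% of genes and those of 1 in 72.5%, all in genes well above the minimum level. Most departures of the smaller size were thus not detectable.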

Other observations

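Gene families were picked by symbol after values were seen, and their calls were all below additive. The antiproliferative family that includes BTG2 had 2 of 3 tested BTG genes and 2 of 2 TOB genes called. TOB2 read 4825 and 4328 normalised counts in control, 4962 and 4804 with OSMI-2, 2880 and 2613 with AT7519, and 1391 and 1149 with both, an interaction of -1.21 (SE 0.16, adjusted p = 0.00731), and TOB1 had -0.82. BTG3 went another way, with an interaction of 0.04 (adjusted p = 0.982). Of 21 dual-specificity phosphatase genes, DUSP2, DUSP4 and DUSP10 were called, with a median of -0.08, and of 39 ZBTB transcription factor genes 5 were, with a median of -0.30. Of the 3 Sprouty feedback inhibitors of receptor tyrosine kinases, SPRY1 was called at -1.43 and all 3 had a negative value. TRIB1, a pseudokinase, had -1.31, 1 call among 3 TRIB genes, and SOX4, a transcription factor of progenitor cells, had -1.50 (adjusted p = 0.030), 1 among 7 SOX genes. Other families looked at gave 3 calls among 44 TRIM genes, 3 among 73 RNF, 2 among 32 FBXO, 1 among 48 USP, 1 among 13 KLF, 1 among 4 SERTAD and 1 among 3 IER genes. There were 0 calls among 10 ARID, 7 IRF and 3 SPRED genes. Of all tested genes, 0.975% were called below additive.

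Among the called genes, rows outside the naming rule held the extremes. MIR593 had the lowest called interaction, -3.68 (adjusted p = 0.0377), but was listed at 0 in both control libraries and at 6.87 and 15.7 with OSMI-2, 69.7 and 91.5 with AT7519, and 71.8 and 71.1 with both, so its value depends on the pseudocount. The clone-named row AC005786.7 had the highest called interaction, 2.85 (adjusted p = 0.0324). It read 49.4 and 56.8 in control, 51.0 and 41.4 with OSMI-2, 5.07 and 5.08 with AT7519, and 40.0 and 34.7 with both.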
